A study of Mus musculus with 30 samples.

Results

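Tight junctions are the belts of membrane strands that seal the space between neighbouring endothelial cells (ECs), and in brain capillaries they carry a large part of the blood-brain barrier. Claudins form the strands, occludin and tricellulin (MARVEL-domain proteins) and the angulin Lsr join them along the cell borders and at the corners where cells meet, JAM proteins are immunoglobulin-like adhesion molecules of the same contact zone, and cytoplasmic plaque proteins such as ZO-1 and paracingulin tie the strands to actin. The 9 genes described here were taken as a named list: the claudin Cldn5, occludin (Ocln), tricellulin (Marveld2), Lsr, the adhesion molecules F11r (JAM-A), Jam2 (JAM-B) and Jam3 (JAM-C), and the plaque genes Tjp1 (ZO-1) and Cgnl1 (paracingulin). They are 9 of the 21820 protein-coding genes of the mouse RNA-seq tables, and all 9 passed the low-count filter of each comparison.

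The study asked how the transcripts and open chromatin of mouse brain ECs change in culture, and whether stabilized beta-catenin alters that. ECs isolated acutely, as GFP-positive cells sorted from the cerebrum and cerebellum of adult male Tie2-GFP mice, are given as 2 samples, beside 2 samples of GFP-negative cells. The paper states that its adult brain EC data join cerebrum data new to the study with cerebellum data from an earlier publication. Wild-type (WT) cultures were primary brain ECs selected with puromycin and grown for 8 days, and they came from 3 experiments of 2 wells each. Wells 1 and 2 were from C57BL/6J mice by isolation method A (papain digestion) and read for 36 cycles, wells 3 and 4 were from Ctnnb1flex3/+;Tie2-GFP mice by method B (Dounce homogenization) and read for 150 cycles, and wells 5 and 6 had the genotype and method of wells 3 and 4 but were read for 36 cycles. The libraries of wells 3 and 4 were also prepared at another facility, so facility and read cycles cannot be told apart there. These assignments follow the study's methods section, whereas one of its figure legends gives method A for wells 5 and 6. Stabilized cultures were from Ctnnb1flex3/+;Pdgfb-CreER;Tie2-GFP mice, in which an endothelial, tamoxifen-inducible Cre removes exon 3 of Ctnnb1 (beta-catenin) and leaves a protein that escapes degradation. Wells 1 and 2 of these were made by method A and wells 3 and 4 by method B, all read for 36 cycles. The cultured mice were male young adults, at 2 months of age for method A. The Ctnnb1flex3/+ controls received the same 4-hydroxytamoxifen injection as pups, so the method B contrast differs in Pdgfb-CreER, whereas the method A contrast also differs in the flex3 and Tie2-GFP alleles. The paper's wording does not settle whether the C57BL/6J controls were injected, so the method A contrast may differ in that too. Each culture pooled the brains of several mice, and culture replicates were wells, whereas acute and GFP-negative replicates were sorted samples. Where each experiment was its own group, p-values measure the spread between wells (and acute samples) and not between cultures started anew. The test of all 6 WT wells puts 3 experiments in 1 group. Its spread mixes wells and experiments, and wells of the same experiment enter it as independent replicates.

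Acute libraries were single reads of 75 cycles and cultures were paired reads, so culture and read type cannot be told apart in these libraries. The study trimmed the reads of a 150-cycle library to single reads of 75 cycles and paired reads of 36, and reported highly correlated gene expression. Estimated counts summed to between 24284843 and 94686456 per RNA library. Protein-coding genes held 36.2% to 64.9% of the deposited TPM (a transcript level corrected for length and depth) in 12 of the 14 libraries, but 94.7% and 94.8% in the 2 wells read for 150 cycles, so deposited TPM values do not share a scale. Levels are therefore given as coding TPM, the TPM of a gene's protein-coding transcripts rescaled so that all protein-coding transcripts of a library have the same total in each library, and deposited TPM follows where the picture differs. The summed coding TPM of 6 endothelial markers, none of them at 0, was 3882 and 4268 in acute ECs, 17.1 to 42.6 in GFP-negative cells, and 913 to 3432 in WT cultures. Of these, Flt1 was at 1512 and 1732 in acute ECs and 23.0 to 189 in WT wells. Kdr, Tek and Erg were also lower in each WT well than in either acute sample. Pecam1 was at 1108 and 629 in acute ECs and 582 to 2233 in WT wells. Cdh5 was at 448 and 388 in acute ECs and 215 to 812 in WT wells. The 4 markers of smooth muscle summed to 543 and 744 in acute ECs, 1193 to 1715 in method A wells, 2299 to 2469 in the 150-cycle wells and 7805 to 8379 in the method B wells read for 36 cycles. Acta2, Tagln and Cnn1 were higher in each WT well than in either acute sample. Myh11 ran the other way, at 57.9 and 50.0 in acute ECs and 0.571 to 8.56 in WT wells. Pericyte markers summed to 813 to 900 in acute ECs and 6.11 to 25.9 in WT wells. Of the pericyte sum in acute ECs, Rgs5 held 694 and 815. Pdgfrb, Kcnj8 and Abcc9 were also lower in each WT well than in either acute sample. Cspg4 overlapped, at 6.82 and 3.46 in acute ECs and 2.63 to 13.1 in WT wells. Astrocyte markers summed to 172 to 1539 in acute ECs and 5.71 to 49.1 in WT wells. Of the astrocyte sum in acute ECs, Gja1 held 1530 and 165, and the other astrocyte markers were at 0.698 to 6.11. The 3 erythrocyte markers summed to 15658 and 79721 in acute ECs and to between 0 and 1.71 in WT wells, and mitochondrial genes held 10.6% and 11.2% of counts in acute ECs against 0.667% to 1.58% in WT wells. The part of these other cell types and of RNA quality in the results was not tested. In bulk RNA, fewer cells of a type and less RNA per cell cannot be told apart.

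Cldn5 is a gene with a single annotated transcript on chromosome 16 (chr16:18776847-18778262, plus strand, GRCm38), and the only open region within 10000 bases of it lies over its start. That region was called in all 10 ATAC-seq libraries. The promoter of the leading gene of the list is shown as RefSeq gives it for GRCm38.p6 (chr16:18776597-18776896, plus strand), with the 50 bases from the annotated start site onward in capitals.
Cldn5 promoter: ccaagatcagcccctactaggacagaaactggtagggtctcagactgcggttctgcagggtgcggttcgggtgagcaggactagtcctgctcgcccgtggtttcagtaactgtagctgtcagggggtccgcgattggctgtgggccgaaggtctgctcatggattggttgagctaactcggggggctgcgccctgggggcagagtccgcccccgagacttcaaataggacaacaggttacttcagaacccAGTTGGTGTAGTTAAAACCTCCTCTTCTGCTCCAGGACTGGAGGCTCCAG

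The other genes are placed on the same build. Ocln (chr13:100496507-100552718, minus strand) and Marveld2 (chr13:100595957-100616971, minus strand) are neighbours on chromosome 13. Tjp1 (chr7:65296165-65527781) and Lsr (chr7:30957770-30973464) are on the minus strand of chromosome 7, and Jam3 (chr9:27097384-27155421) and Cgnl1 (chr9:71626509-71771602) on the minus strand of chromosome 9. F11r (chr1:171437535-171464603) and Jam2 (chr16:84774123-84825928) are on the plus strand.

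In acute ECs 8 of the 9 genes were higher than in GFP-negative cells and Jam3 was lower. Cldn5, the claudin that dominates brain endothelial strands, had a coding TPM of 2883 and 1502 in acute ECs against 4.01 and 0.902 in GFP-negative cells. Its log2 fold change in counts was 9.75 ± 1.13 (SE; edgeR quasi-likelihood test, Benjamini-Hochberg adjusted p = 0.00312). Calls required an adjusted p under 0.05, a change of over 2-fold and a deposited TPM of at least 5 in each library of the higher group, and they took in 8.3% of the 15102 tested genes as higher and 7.56% as lower. By adjusted p alone the rates were 9.93% higher and 19.7% lower, and the same 9 members passed.

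The other 7 genes raised in ECs spanned the roles of the junction. Lsr, which recruits tricellulin to tricellular contacts, was at 411 and 283 coding TPM in ECs and at 2.41 and 0.822 in GFP-negative cells (log2 fold change 7.53 ± 0.89, adjusted p = 0.00331 in edgeR). Marveld2, tricellulin itself, followed at 5.29 ± 0.82, with coding TPM of 172 and 48.2 against 1.46 and 4.94, and its 2 acute samples differed by more than those of any other member. Ocln, the occludin of the strands, rose by 4.58 ± 0.45. The adhesion gene F11r rose by 3.64 ± 0.41 and Cgnl1, a plaque protein linked to the cytoskeleton, by 3.48 ± 0.48. Tjp1, the scaffold to which claudins bind, rose by 2.90 ± 0.33 and Jam2 by 2.08 ± 0.49. The Jam2 call was lost without acute replicate 1 (1.76, edgeR adjusted p = 0.0717) or GFP-negative replicate 1 (1.57, edgeR adjusted p = 0.068). Jam3, whose product also occurs on smooth muscle and glia, was at 7.51 and 13.3 coding TPM in ECs and at 78.3 and 80.8 in GFP-negative cells, a change of -2.82 ± 0.46 with an adjusted p of 0.00839 in edgeR. Among ECs the order of mean coding TPM ran from Cldn5 through Ocln, Jam2, Lsr, Tjp1, Cgnl1, Marveld2 and F11r to Jam3, and neighbours in that order overlapped in acute ECs except Cldn5 and Ocln, Tjp1 and Cgnl1, and F11r and Jam3. In deposited TPM over all transcripts Tjp1 was second and F11r stood above Marveld2.

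**Figure D1:**
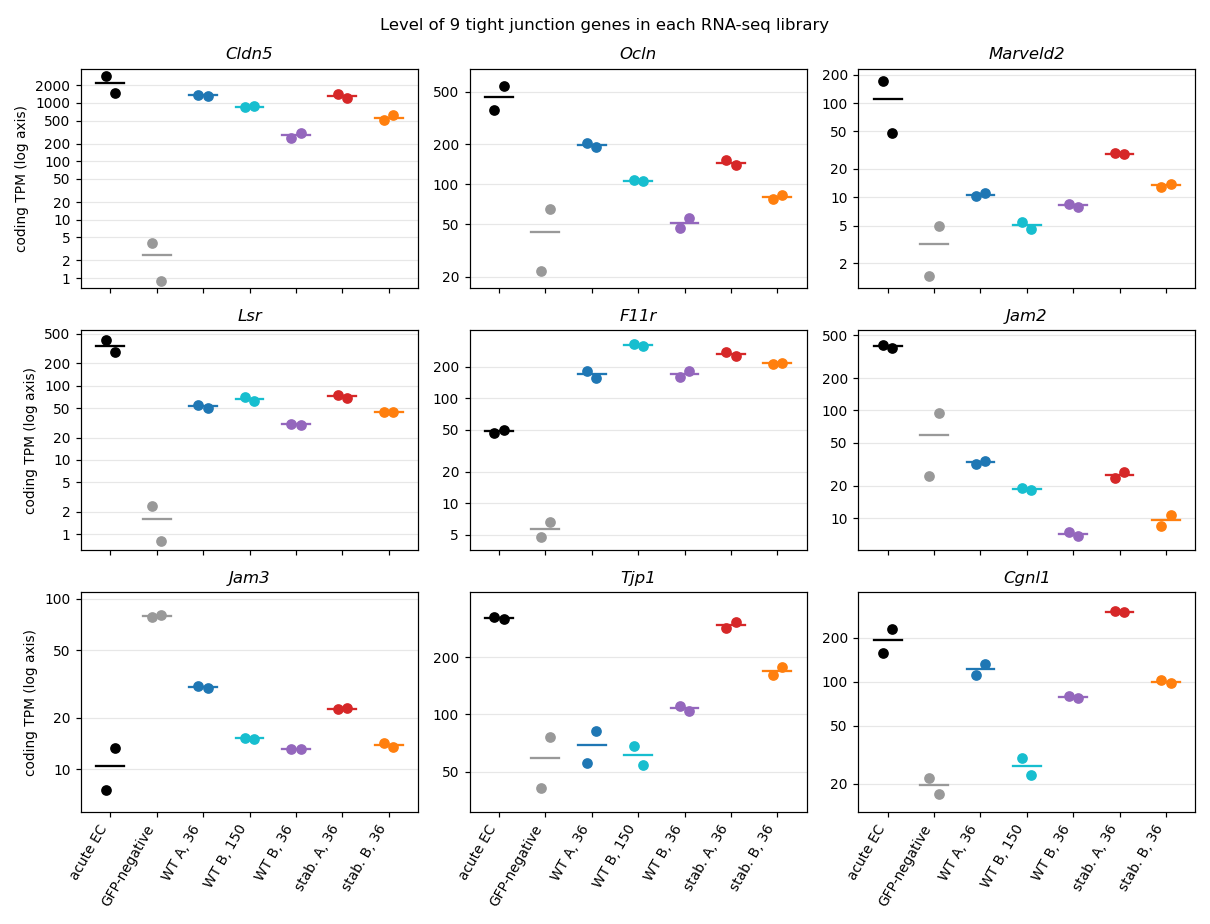
Coding TPM (log axis, a separate scale for each gene) of the 9 genes in each of the 14 RNA-seq libraries; points are libraries and lines are means of 2 libraries, with stab. for stabilized, A and B for the isolation method and 36 or 150 for read cycles. For F11r the 6 WT wells sit between 156 and 329, above both acute samples at 47.1 and 49.5, whereas Jam2 falls from 377 and 410 to between 6.75 and 34.1.

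Across all 6 WT wells, 7 of the 9 genes were called lower than in acute ECs and none higher. Background rates for this comparison were 10.2% of 13784 genes lower and 13.5% higher, or 21.3% lower and 23.9% higher by adjusted p alone. The member median log2 fold change was -2.04, beside 0.10 over all tested genes. At an unadjusted p under 0.05 a further gene, F11r, was higher, and DESeq2 also called F11r higher.

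Jam2 showed the deepest fall. Its coding TPM was 410 and 377 in acute ECs and had a lowest, median and highest of 6.75, 18.5 and 34.1 in the 6 WT wells, with a log2 fold change of -4.31 ± 0.55 (edgeR adjusted p = 0.000551). All 6 wells were also below the lower acute sample for Marveld2 (4.56, 8.28 and 11.1; -3.23 ± 0.44, edgeR adjusted p = 0.000719), and the change was -2.10 without acute replicate 1 and -3.89 without acute replicate 2. Lsr, the other tricellular gene, was at 29.6, 52.8 and 70.2 (-3.17 ± 0.32, edgeR adjusted p = 0.0002). Both genes of tricellular contacts lay far below the acute level in each well.

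Tjp1 was at 325 and 319 coding TPM in acute ECs and at 54.2, 75.1 and 110 in WT wells, a change of -2.72 ± 0.35 (edgeR adjusted p = 0.00055). Ocln was at 364 and 552 in acute ECs and at 46.6, 106 and 206 in WT wells, a change of -2.04 ± 0.48 (edgeR adjusted p = 0.00883). Cldn5 was at 253, 859 and 1358 in WT wells, a change of -1.97 ± 0.59 (edgeR adjusted p = 0.024). The highest Cldn5 well lay just under the lower acute sample at 1502. Cldn5 remained the highest of the 9 genes in coding TPM in each WT well, including the lowest, where it exceeded F11r by 253 to 158.

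The calls on Cldn5, Ocln and Cgnl1 rested on few libraries. Without acute replicate 1, the higher of both acute samples for Cldn5, the Cldn5 change was -1.34 (adjusted p = 0.221), the Ocln change -1.80 (adjusted p = 0.0694) and the Cgnl1 change -2.07 (adjusted p = 0.127), all by edgeR, which left 4 of the 9 genes called. Scaling by library size alone gave Cldn5 an adjusted p of 0.0534, and summing the wells of each experiment gave 0.0812. Cgnl1, at 157 and 228 in acute ECs and 23.1, 78.9 and 132 in WT wells (-1.96 ± 0.71, edgeR adjusted p = 0.0494), lost its call on leaving out acute replicate 1 or 2 or WT replicate 1, 3, 5 or 6, with adjusted p between 0.0527 and 0.155.

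F11r ran the other way. JAM-A, its product, is a homophilic adhesion molecule of endothelial and epithelial contacts and of platelets. Its coding TPM was 47.1 and 49.5 in acute ECs and 156, 182 and 329 in WT wells, with no overlap. On all counts of the gene the change was 1.37 ± 0.53 (edgeR adjusted p = 0.0609, not called), and on counts of its protein-coding transcript alone, an alternative chosen after seeing the data, it was 1.74 (adjusted p = 0.0302, called higher). Jam3 was at 7.51 and 13.3 in acute ECs and at 13.1, 15.2 and 30.6 in WT wells (0.81 ± 0.40, edgeR adjusted p = 0.123). WT wells 5 and 6, both at 13.1, lay within the acute range.

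The transcripts to which reads were assigned differed between acute and cultured cells for several genes. In acute ECs the leading Tjp1 transcript was a retained-intron model of 385 bases, at 192 and 202 deposited TPM, and 70.5% and 71.5% of Tjp1 TPM lay on transcripts not annotated as protein-coding. In WT wells that short model was at 0 to 3.74 deposited TPM. It was also the leading Tjp1 transcript in GFP-negative cells, at 29.4% and 55.2% of Tjp1 TPM. Transcripts not annotated as protein-coding held 51.7% and 62.9% there. For F11r, a retained-intron model of 678 bases took 67.9% and 80.3% of the gene's TPM in acute ECs, at 30.8 and 79.7 deposited TPM, and 0% to 13.0% in WT wells. Under an offset for mean transcript length the sign of the F11r change turned in 2 of the 3 culture experiments (-0.38 by method A and -0.16 by method B at 36 cycles). In deposited TPM over all transcripts the acute F11r values of 45.3 and 99.3 overlapped the WT range of 59.7 to 290, whereas the coding transcript alone was at 14.3 and 19.5 against 57.5 to 290.

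Jam2 showed the reverse pattern. No Jam2 TPM was on non-coding transcripts in acute ECs or in the 150-cycle wells, while a processed transcript of 659 bases took 48.8% to 51.8% in the other WT wells. For Lsr the leading transcript was Lsr-205 in acute ECs and Lsr-203 in each WT experiment, both protein-coding. For Ocln, a short coding model of 390 bases held 34.7% of TPM in acute replicate 2 and none in acute replicate 1. Between acute ECs and cultures, read length and single or paired reading changed together with these shares. The shares also varied between the 2 GFP-negative libraries, both read for 75 cycles. There non-coding transcripts took 0% and 53.5% of Jam2 TPM and 0% and 72.3% of F11r TPM. The part of read type in the shares was not tested here. Entering each gene's mean transcript length as an offset, which passes these shares into the fit, gave F11r a change of 0.12 and Tjp1 one of -3.60, and left Cldn5 at -1.55 with an edgeR adjusted p of 0.0631.

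**Figure D2:**
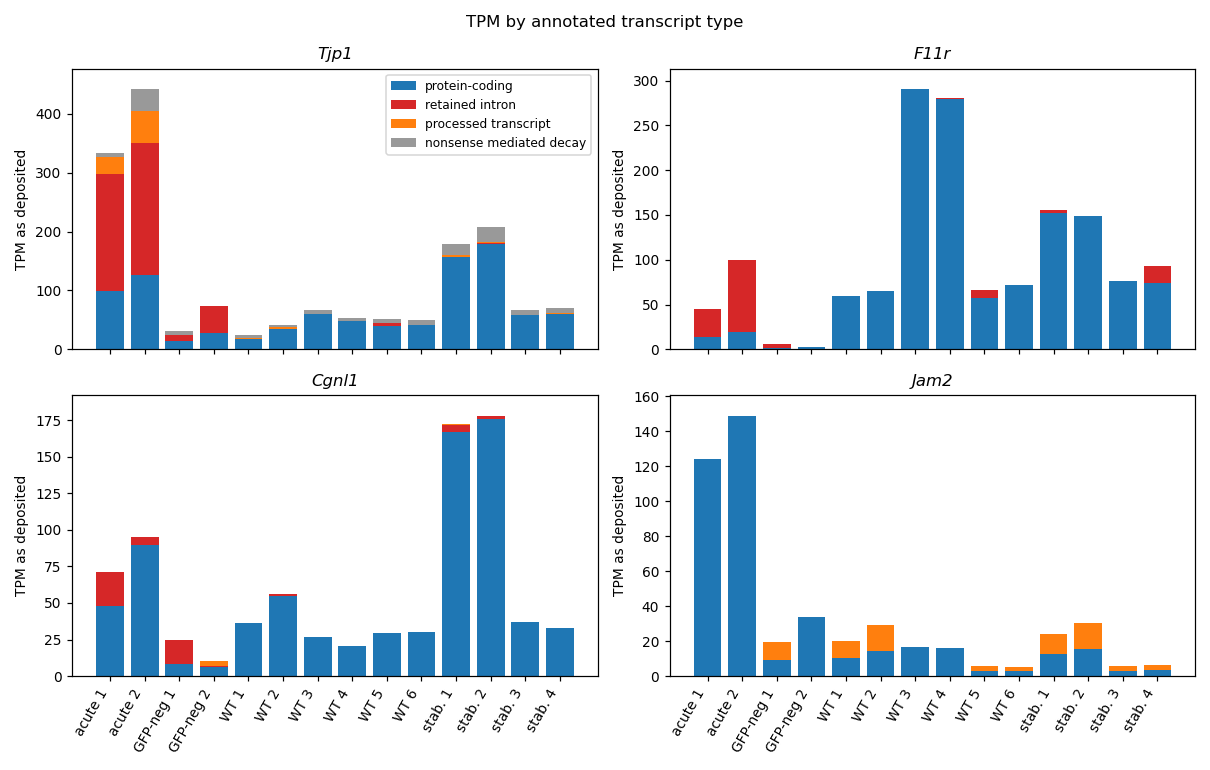
Deposited TPM of 4 genes in each RNA-seq library, stacked by the annotated type of transcript; bars start at 0 and each is 1 library. Retained-intron models make up most of Tjp1 and F11r in both acute samples and little in cultures, and a processed transcript makes up about 50% of Jam2 in the WT wells read for 36 cycles.

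Taken experiment by experiment, 7 genes were lower than in acute ECs in each of the 3 WT experiments. Background rates of lower calls were 13.9% for method A, 15.8% for method B at 150 cycles and 12.5% for method B at 36 cycles, and rates of higher calls were 16.3%, 22.5% and 17.6%. By adjusted p alone the rates were 32% lower and 32.1% higher, 36.1% and 34.6%, and 30.5% and 33.6%. The 7 genes were the same in each: Cldn5, Ocln, Marveld2, Lsr, Jam2, Tjp1 and Cgnl1. Higher calls went to Jam3 in the method A experiment (1.29 ± 0.23, edgeR adjusted p = 0.00238) and to F11r in the 150-cycle experiment (2.08 ± 0.16, edgeR adjusted p = 4.2e-05). The 3 contrasts share their acute samples.

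The size of the change differed between experiments. Cldn5 was at 1358 and 1337 coding TPM in the method A wells, 838 and 880 in the 150-cycle wells and 253 and 301 in the method B wells read for 36 cycles, and its log2 fold changes against acute ECs were -1.22 ± 0.34, -2.09 ± 0.35 and -3.30 ± 0.36. Ocln followed the same order, with wells at 206 and 191, 107 and 105, and 46.6 and 55.5 (-1.54, -1.85 and -3.23). Jam2 did too, with changes of -3.52, -4.54 and -5.56. In deposited TPM the 150-cycle wells of Cldn5, at 739 and 774, lay within the acute range of 593 to 874. They were also above the method A wells at 441 and 557, so that order turned. Deposited Ocln turned likewise, at 94.1 and 92.6 in the 150-cycle wells against 66.9 and 79.6 by method A.

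Tjp1 and Cgnl1 kept a different order. Tjp1 was lowest against acute ECs in the 150-cycle experiment (-3.09 ± 0.19) and least lowered in the method B experiment at 36 cycles (-2.24 ± 0.19). Cgnl1 was at 30.1 and 23.1 coding TPM in the 150-cycle wells (-4.12 ± 0.18) but at 80.4 and 77.5 in the wells of the same method read for 36 cycles (-1.74 ± 0.16) and at 111 and 132 by method A (-1.27 ± 0.16). Lsr ranged from -2.78 to -3.68. In a test of any difference among the 3 WT experiments all 9 genes passed (edgeR adjusted p from 1.26e-08 for Cgnl1 to 0.0002 for Tjp1), as did 89.8% of all 13050 genes tested. The method A call on Cldn5 was lost without acute replicate 1 (-0.59) and, at an edgeR adjusted p of 0.0972 and 0.0901, without WT replicate 1 or 2.

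**Figure D3:**
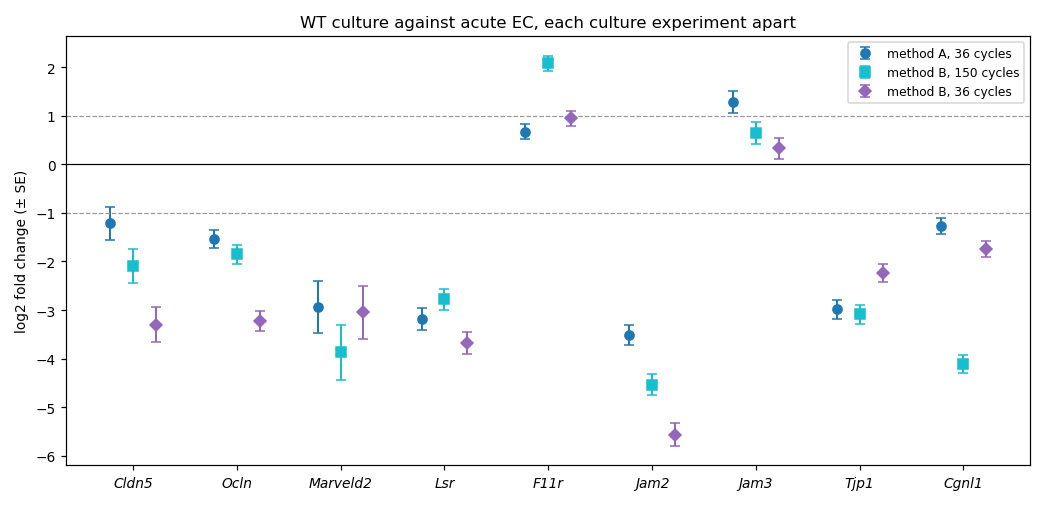
Log2 fold change of estimated counts in WT culture against acute ECs for each of the 3 culture experiments (mean of 2 wells against 2 acute samples, bars ± SE from the edgeR fit); dashed lines mark a 2-fold change. Points for 7 genes lie below -1 in each experiment, and F11r and Jam3 lie above 0 in each, although with transcript length as an offset F11r is at -0.38 by method A and -0.16 by method B at 36 cycles, and Jam3 is at -0.11 in the latter on coding transcripts with that offset.

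Beta-catenin stabilization was compared with WT within each method. By method A, 3 of the 9 genes were called higher and none lower, against background rates of 5.02% higher and 0.936% lower among 13356 genes. Tjp1 was at 286 and 307 coding TPM in stabilized wells and at 55.4 and 82.1 in WT wells, a change of 1.85 ± 0.10 (edgeR adjusted p = 1.1e-05). On this scale its stabilized wells lay near the acute values of 325 and 319. In deposited TPM over all transcripts they were at 180 and 208, below the acute values of 333 and 442. Marveld2 was at 29.2 and 29.1 against 10.3 and 11.1 (1.29 ± 0.09, edgeR adjusted p = 2.1e-05), still below both acute samples. Cgnl1 was at 302 and 301 against 111 and 132 (1.14 ± 0.07, edgeR adjusted p = 1.4e-05), above both acute samples. In the same wells the 6 endothelial markers summed to 4668 and 4777 coding TPM against 3051 and 3432 in WT, and the smooth muscle markers to 834 and 952 against 1193 and 1715. The part of those differences was not tested.

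The remaining 6 genes changed by less than 2-fold in method A. Lsr (0.43) and F11r (0.55) were higher and Ocln (-0.51), Jam2 (-0.46) and Jam3 (-0.54) lower at an edgeR adjusted p under 0.05, where 29.7% of all genes were higher and 29.1% lower. Cldn5 was at 1401 and 1227 in stabilized wells and at 1358 and 1337 in WT wells (-0.19 ± 0.13, edgeR adjusted p = 0.219), and these wells overlapped. In deposited TPM, of which protein-coding genes held 61.5% and 64.9% in these stabilized wells and 36.2% and 46.9% in these WT wells, Cldn5 was at 772 and 715 against 441 and 557, without overlap.

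By method B, Cldn5 was the 1 gene called higher. Background rates were 1.06% higher and 0.247% lower. Cldn5 was at 513 and 615 coding TPM in stabilized wells and at 253 and 301 in WT wells, a change of 1.05 ± 0.13 (edgeR adjusted p = 0.000598), and it stayed below both acute samples. The change lay close to the 2-fold limit and was 0.88 without WT replicate 5 and 0.94 without stabilized replicate 4, so that neither fit called it. The endothelial markers summed to 2267 and 2320 against 1713 and 1792 in these wells, and their part was not tested. Ocln (0.67), Marveld2 (0.68), Tjp1 (0.61), Lsr (0.55), F11r (0.35) and Cgnl1 (0.34) were higher by less than 2-fold at an edgeR adjusted p under 0.05, as were 17.8% of all genes, with 13.5% lower. Jam2 (0.24 ± 0.14, edgeR adjusted p = 0.228) and Jam3 (0.07 ± 0.07, edgeR adjusted p = 0.49) did not pass.

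The change of stabilized against WT wells differed between methods for 7 of the 9 genes in a test of the interaction. In that test 25.1% of all genes passed with a positive difference, method B minus method A, and 24.5% with a negative one. At over 2-fold, 3 of the 9 passed, beside 15.3% of all genes. This difference was 1.24 ± 0.18 for Cldn5 and 1.18 ± 0.13 for Ocln, and -1.24 ± 0.14 for Tjp1. Ocln was higher in stabilized wells by method B, at 77.8 and 82.7 against 46.6 and 55.5, and lower by method A, at 152 and 139 against 206 and 191. In deposited TPM the method A wells of Ocln had the opposite order, at 84.0 and 80.9 against 66.9 and 79.6. The difference was 0.12 ± 0.10 for Lsr and -0.20 ± 0.15 for F11r, neither of which passed. Method and control genotype changed together and cannot be told apart. Each genotype had 2 wells in each method, from cultures separate from those of the other genotype, so genotype and culture cannot be told apart either. With all 4 stabilized wells set against all 6 WT wells, no gene of the 9 was called. Total Ctnnb1 counts, which do not show the exon 3 deletion, changed by -0.42 by method A and 0.26 by method B.

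**Figure D4:**
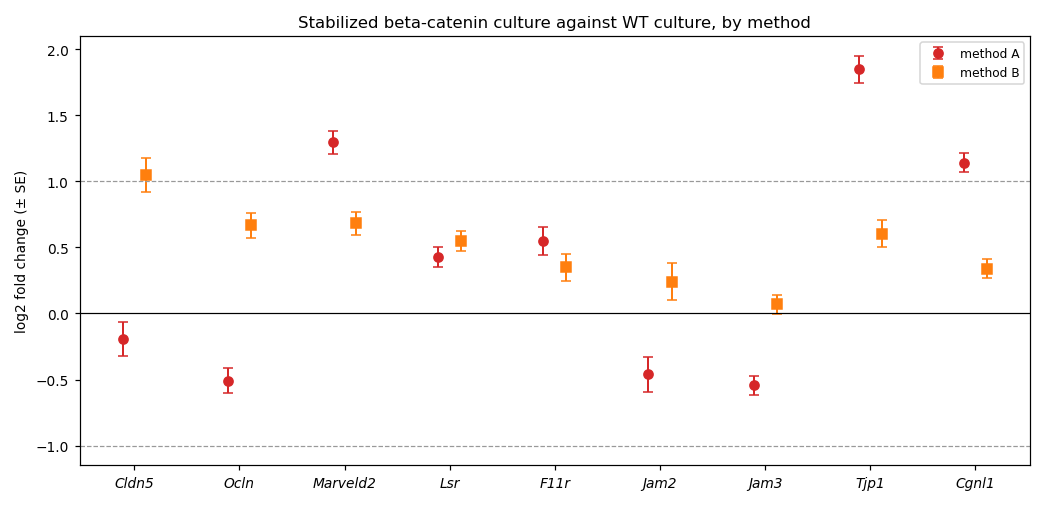
Log2 fold change of estimated counts in stabilized against WT culture for each isolation method (2 wells against 2 wells, bars ± SE from the edgeR fit); dashed lines mark a 2-fold change. Tjp1, Cgnl1 and Marveld2 exceed 1 by method A, Cldn5 alone exceeds 1 by method B, and Ocln lies on opposite sides of 0.

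Open chromatin was read as peaks called in each ATAC-seq library apart, 2 from acute ECs, 6 from WT cultures and 2 from stabilized cultures by method B. By the study's methods, WT replicates 1 and 2 were by method A from C57BL/6J mice. The other WT replicates were by method B from Ctnnb1flex3/+;Tie2-GFP mice. Peaks over a fold enrichment of 2 and a -log10 q of 2 numbered 31779 and 37384 in acute ECs. They numbered 50395 and 33122 in method A cultures and 79116 to 98732 in method B cultures, WT and stabilized. A peak lay within 1000 bases of an annotated start of 8 genes in each of the 10 libraries, a state found for 50.8% of all protein-coding genes, and Marveld2 had 1 in all but WT replicate 2. Fold enrichment is each library's own ratio and was not scaled between libraries, so its values are given without a test. At the first start of Jam2 it was 13.9 and 13.1 in acute ECs. WT cultures were at 4.95 and 5.61 by method A and 3.85 to 5.83 by method B, and stabilized cultures at 5.02 to 5.47. A region near an internal Jam2 start ran the other way, at 3.67 and 4.72 in acute ECs. There WT cultures were at 11.8 and 6.46 by method A and 14.2 to 23.8 by method B. At the Cgnl1 start acute ECs were at 14.1 and 12.8. WT cultures there were at 6.76 and 4.89 by method A and 7.16 to 8.50 by method B, and stabilized cultures at 5.89 to 6.48. The promoter of Cldn5 was at 11.9 and 12.2 in acute ECs, and in WT cultures at 6.60 and 7.30 by method A and 7.05 to 9.53 by method B. At the Jam3 start the order turned, with 8.21 and 5.90 in acute ECs. WT cultures there were at 12.3 and 10.4 by method A and 17.4 to 21.3 by method B. The Lsr start was also more enriched in WT cultures, while Lsr transcripts were lower. It was at 8.27 and 7.84 in acute ECs, 12.5 and 9.18 by method A and 14.2 to 17.5 by method B.

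Peaks of the 10 libraries merged into 126224 regions, of which 146 lay in or within 10000 bases of the 9 genes. Of these 146, 7 (4.79%) were called in both acute and no WT library, beside 2.93% of all regions, and 7 (4.79%) were called in all WT and no acute library, beside 8.09% of all. The lost regions were all intronic, 2 in Ocln and 1 each in Tjp1, Lsr, F11r, Jam2 and Cgnl1. Of them, 1 Ocln region was called in a single stabilized library and the other 6 in none. The gained regions were 4 in Cgnl1, 1 each in Jam2 and Jam3, all intronic, and 1 in the flank of Marveld2. Both classes took the WT libraries of both methods together. A region called in all method B and no method A WT library was therefore in neither class, as was 1 at Tjp1 (chr7:65403221-65403817). Both counts depended on single libraries. Without WT replicate 2, which had the fewest peaks of the cultures, 15 regions (10.3%) were called in the other WT and no acute library, beside 16% of all, and the 8 added lay at Ocln, Tjp1, F11r, Jam3 and Cgnl1. Without acute replicate 2, 14 (9.59%) were called in acute replicate 1 and no WT library, beside 5.26% of all.

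**Figure D5:**
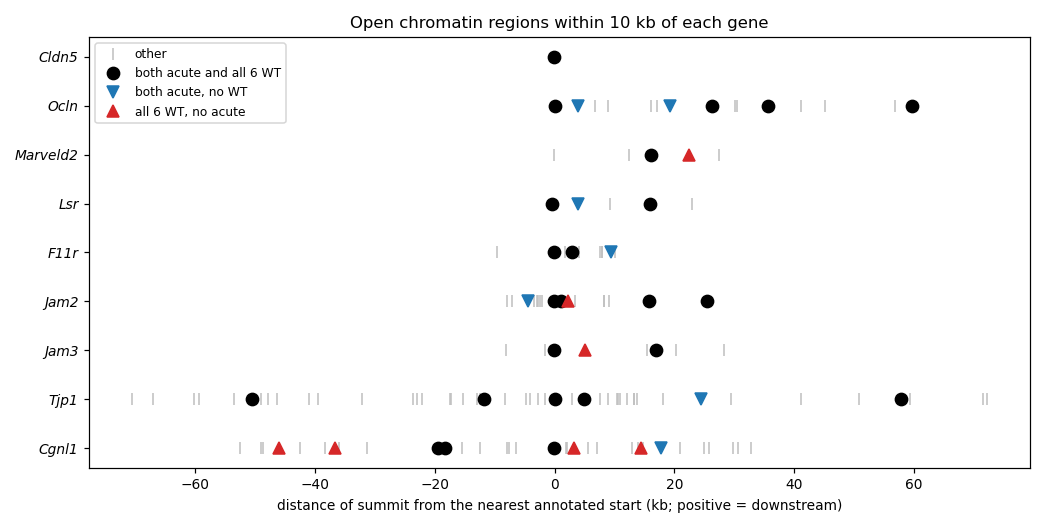
Open chromatin regions in or within 10 kb of each gene, placed by the distance of the strongest summit from the nearest annotated transcript start (kb, positive downstream); symbols give whether a region was called in both acute and all 6 WT libraries, in both acute and no WT library, in all 6 WT and no acute library, or otherwise. Downward triangles for lost regions fall in 6 genes, and 4 of the 7 gained regions fall in Cgnl1.

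In a window of 300 bases around the strongest summit, 2 of the 7 lost regions held the TCF/LEF letters CTTTGA on either strand, as did 39% of all such lost regions and 19.9% of all regions, and none held the AP-1 letters TGANTCA. Of the 7 gained regions, 2 held TGANTCA, as did 52.6% of all gained and 27.6% of all regions. TCF/LEF factors are the DNA-binding partners of beta-catenin, and AP-1 is the Fos and Jun dimer. The regions that held a match are printed to show where in each member these letters lie, in 201 bases centred on the summit, plus strand of GRCm38, with each match in capitals. The Ocln stretch (chr13:100548425-100548625) lies 3935 bases downstream of the nearest annotated start and had a fold enrichment of 9.24 and 7.52 in acute ECs. The lost Cgnl1 stretch (chr9:71753723-71753923), with 11.2 and 6.67, lies 17737 bases downstream of the nearest annotated start. The Jam3 stretch (chr9:27121317-27121517) had a fold enrichment of 9.36 to 26.2 in WT cultures. The gained Cgnl1 stretch (chr9:71684859-71685059) held 3 matches and was at 4.84 to 15.0 in WT cultures.
Ocln, lost, TCF/LEF: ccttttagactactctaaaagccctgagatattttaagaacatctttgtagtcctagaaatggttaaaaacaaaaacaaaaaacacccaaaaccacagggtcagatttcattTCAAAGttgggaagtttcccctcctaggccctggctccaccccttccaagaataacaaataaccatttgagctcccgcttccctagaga
Cgnl1, lost, TCF/LEF: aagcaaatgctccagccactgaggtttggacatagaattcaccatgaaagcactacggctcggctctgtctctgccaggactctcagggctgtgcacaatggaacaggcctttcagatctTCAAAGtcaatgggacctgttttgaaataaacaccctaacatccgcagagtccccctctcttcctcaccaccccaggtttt
Jam3, gained, AP-1: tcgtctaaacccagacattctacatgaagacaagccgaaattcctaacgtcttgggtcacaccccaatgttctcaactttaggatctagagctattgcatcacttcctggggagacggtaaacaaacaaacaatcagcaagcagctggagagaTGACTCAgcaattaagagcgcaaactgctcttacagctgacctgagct
Cgnl1, gained, AP-1: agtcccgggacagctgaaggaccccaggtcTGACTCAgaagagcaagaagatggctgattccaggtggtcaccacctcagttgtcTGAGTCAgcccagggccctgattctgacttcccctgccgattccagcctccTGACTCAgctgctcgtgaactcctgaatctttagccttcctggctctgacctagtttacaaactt

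The other tight junction genes were a list of 57 measured claudins, plaque proteins and membrane proteins. Against acute ECs 37 were tested in WT cultures, 3 were called higher and 5 lower, with a median log2 fold change of -0.15 beside 0.10 over all genes. Of all tested genes 13.5% were called higher and 10.2% lower. Cldn12, a claudin without the usual binding motif for ZO proteins, was at 3.06 and 7.44 coding TPM in acute ECs and at 25.9 to 61.1 in WT wells (2.20 ± 0.51, edgeR adjusted p = 0.00811). Vasp, an actin regulator (1.73 ± 0.53), and Marveld1, a MARVEL-domain protein (1.40 ± 0.41), were the others called higher. Cldn1, an epithelial claudin, was at 0.213 and 0 coding TPM in acute ECs and at 7.97 to 49.4 in WT wells, passed the test (edgeR adjusted p = 0.0071) and missed only the TPM minimum. It was chosen for mention after its values were seen, and it was called higher in both method B experiments. Lower calls went to the angiomotin Amot (-3.71 ± 0.58), the angulin Ildr2 (-1.63), Arhgef11 (-1.60), the polarity protein Pard3 (-1.57) and the immunoglobulin-like Igsf5 (-1.55). Without acute replicate 1 none of these genes was called higher and 2 were called lower, with Igsf5 at -0.52 (edgeR adjusted p = 0.426) and Arhgef11 at -1.13.

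Between GFP-positive and GFP-negative cells 40 of the 57 were tested, 8 were called higher and 5 lower, beside 8.3% and 7.56% of all tested genes. The higher calls with the greatest change were Igsf5 (6.14), Esam (4.20), an endothelial adhesion molecule, Amot (3.29), Afdn (2.90), which links nectins to actin, Magi3 (2.32) and Ybx3 (1.48). The lower calls were Cldn10 (-6.87), Cldn11 (-6.63), the claudin of myelin, Magi2 (-4.76), Marveld1 (-2.04) and Patj (-1.96). Patj kept its call in 1 of the 4 fits that left out a library, and Ybx3 in 2. In stabilized cultures Amot was called higher by method A (1.05 ± 0.10, edgeR adjusted p = 6e-05) and Cldn1 lower by method B (-1.19 ± 0.24, edgeR adjusted p = 0.00654), at 12.6 and 13.1 coding TPM against 26.9 and 29.8. Of all tested genes 5.02% were called higher by method A and 0.247% lower by method B. The Amot call was lost without WT replicate 1 (0.99) or stabilized replicate 2 (0.97), and the Cldn1 call without stabilized replicate 4 (edgeR adjusted p = 0.0523). Cldn12 was lower in stabilized wells by less than 2-fold in both, by -0.90 and -0.75.

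The 5 genes whose deposited TPM followed Cldn5 most closely over the 14 RNA libraries, by Pearson's r of log2(TPM + 1) among 8748 genes, were Adgrl4 (0.990), Ly6a (0.983), Ccm2l (0.979), Pde2a (0.979) and Mfng (0.979). Libraries share scale factors and the near-absence of endothelial transcripts from GFP-negative cells, so these values are descriptive. On coding TPM the leading genes were Mfng (0.988), Hspa12b (0.987), Far2 (0.984), Pir (0.983) and Adgrl4 (0.981), so that Mfng and Adgrl4 were in both lists.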

How the data were processed

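RNA-seq of 14 libraries and ATAC-seq of 10 were used, and the cerebrum-only samples were not analysed here. The authors quantified RNA-seq reads with Salmon 0.14.0 and deposited estimated counts and TPM for 140198 GENCODE M21 transcripts. They aligned ATAC-seq reads with HISAT2 2.1.0 per the labels, used MACS2 2.1.2 on each library separately, and deposited peaks with fold enrichment as a ratio, -log10 q and a score (the score was not used). Peak coordinates are on GRCm38 (mm10). The text's -log10 values are those the authors deposited.

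Estimated counts were summed per gene, rounded, filtered with filterByExpr and fitted with edgeR 4.0.16 (TMM, quasi-likelihood test, Benjamini-Hochberg over all tested genes) in R 4.3.3. Calls needed an adjusted p under 0.05, a change over 2-fold and a deposited TPM of at least 5 in each library of the higher group. Coding TPM was rescaled per library, and this scale was chosen after seeing the data. The fit was tested on simulated counts. Isolation method, read cycles and genotype of each well follow the study's methods. The members and gene lists were chosen with earlier results of these data known. Named genes were the 9 members, up to 6 other tight junction genes with the largest called change in each direction in the WT and GFP comparisons, the 5 genes most like Cldn5, and Ctnnb1. Alternatives were other scalings, filters, DESeq2 1.42.0, length offsets, coding transcripts alone, each library left out, wells summed, and a replicate block. Promoter sequence came from RefSeq, whose table held 7 of the 9 genes.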

Additional observations from a re-analysis of the deposited data

Results flagged for a closer look

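The change of stabilized against WT culture differed between isolation methods in a test of the difference. The log2 change of stabilized against WT culture, method B minus method A, was 1.24 for Cldn5, 1.18 for Ocln, -1.24 for Tjp1, 0.70 for Jam2, 0.62 for Jam3, -0.80 for Cgnl1 and -0.61 for Marveld2 (edgeR interaction test, adjusted p from 0.000279 for Tjp1 to 0.0154 for Jam2). Jam2 did not pass without WT replicate 6 (adjusted p = 0.0576) or stabilized replicate 4 (adjusted p = 0.0783). Control genotype changed with method and stabilization with culture, and 25.1% and 24.5% of all genes passed the same test in each direction.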

How the results depend on the processing

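For WT culture against acute ECs, 1 member rather than none was called higher under library size scaling, DESeq2, coding transcripts alone, these with a length offset, and all 14 libraries in 1 fit (F11r), and in the replicate block and the same libraries without it (Jam3). The other tight junction genes called higher numbered 9 with no TPM minimum and 1 with wells summed, and those called lower numbered 8 with a length offset, 9 with no TPM minimum, 9 with all 14 libraries and 1 with wells summed. On coding transcripts, with or without the offset, members called higher numbered 2 by method A and 1 by method B at 36 cycles, and the length offset left 0 at 150 cycles. In the GFP comparison the other genes called higher numbered 4 with the length offset and 5 on coding transcripts with it, and those called lower 11 with no TPM minimum and 2 on coding transcripts with the offset. All 4 stabilized against all 6 WT wells left 0 members called, as did coding transcripts with the offset for method B. Changes of sign were F11r at -0.38 (method A) and -0.16 (method B at 36 cycles) with the length offset, Jam3 at -0.11 (method B at 36 cycles) on coding transcripts with it, and, with all stabilized against all WT wells, Cldn5 at 0.21 and F11r at -0.11 beside method A, and Ocln at -0.23, F11r at -0.11, Jam2 at -0.18 and Jam3 at -0.22 beside method B. The causes were not tested.

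Leaving out each library in turn gave 4 to 7 members lower and 0 to 1 higher in WT culture (the 4 without acute replicate 1), with 0 to 3 other genes higher and 2 to 5 lower. In the GFP comparison it gave 7 to 8 members higher and 1 lower, with 5 to 10 other genes higher and 4 to 5 lower. By experiment it gave 6 to 7 members lower and 1 higher by method A, 7 and 1 at 150 cycles, and 7 and 0 to 1 by method B at 36 cycles. Stabilization gave 3 members higher by method A and 0 to 1 by method B, and the interaction 3 to 4 higher and 3 lower. Open regions at the members numbered 7 to 14 for acute without WT (14 without acute replicate 2) and 7 to 15 for WT without acute (15 without WT replicate 2), an alternative chosen after seeing the data. Of the single log2 fold changes under the remaining alternatives, 807 kept their direction and call, 36 lost the call, 11 gained one and 9 changed sign.

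The replicate block gave 7 members lower in WT culture, 8 higher and 1 lower in the GFP comparison, and 3 higher with stabilization by method A. Deviations of same-numbered samples correlated at -0.05, 0.10 and 0.17 over 10966 genes, and nothing in the labels ties a number to a shared batch. The block could not be fitted for stabilization by method B, whose stabilized and WT wells share no replicate numbers. With 2 libraries a group, changes close to 2-fold or to an adjusted p of 0.05 moved across those limits.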
